A study of Rattus norvegicus with 6 samples.

Results

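Fibroblasts are the connective tissue cells of a peripheral nerve and its sensory ganglion. Those of the epineurium lie in the outer sheath and around vessels, and those of the endoneurium lie between the nerve fibres and the cell bodies. Both lay down collagen fibrils and the small proteoglycans that space those fibrils, while neurons, satellite glia and Schwann cells make up most of the ganglion itself. The 10 genes described here mark these fibroblasts: Dpt, Pi16, Dcn, Lum, Pdgfra, Cd34, Clec3b, Mfap5, Ogn and Sox9. They were picked by name from the gene symbols of the deposited table, where each has 1 row among 23800.

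Gene expression was measured in lumbar dorsal root ganglia of Sprague Dawley rats with a bone cancer pain model. In the BCP group, live cells of the rat mammary carcinoma line MRMT-1 were injected in 10 µL of medium into the left tibia. In the sham group (sBCP) the injected MRMT-1 cells had been boiled, so both groups carried the drilled tibia and an injection of cell material. Ganglia L3 to L5 of the injected side were collected on day 17, and the samples were 3 BCP (replicates 1, 2 and 3) and 3 sBCP (replicates 1, 3 and 4), with no statement that each came from its own animal. The labels give no age or sex, and do not say whether the ganglia were stripped of their sheath.

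The samples held ganglion RNA throughout. The neuronal genes Rbfox3, Uchl1 and Snap25 lay at 54.5 to 74.8, 2350 to 3072 and 350.2 to 409 FPKM (fragments corrected for transcript length and sequencing depth), and the myelin gene Mbp at 618 to 1062 FPKM. The defining genes of satellite glia (Fabp7, Kcnj10), macrophages (Cd68, Csf1r) and endothelium (Cdh5) were above 0 in every sample. The summed FPKM was 479167 to 495494 per sample. By the most frequent ratio of low values between samples, 5 samples had an estimated 1.11 to 1.31 times the depth of BCP replicate 1. That estimate is rough, as 33 to 56 of 1635 to 1852 features per sample shared the most frequent ratio. The absolute depth was unknown. Skeletal muscle RNA differed between the groups. Of 11 muscle genes tested 10 were called lower in BCP, against 23 of all 13710 genes tested (0.168%). Several of the 10 were below 1 FPKM in every BCP sample. These passed the filter of 1 FPKM in at least 3 samples through sBCP alone. The summed level of the 10 muscle genes other than Pvalb was 14.1 to 23.1 FPKM in BCP and 562 to 997 FPKM in sBCP. Mb was listed at 0 in BCP replicates 2 and 3. Pvalb, which proprioceptive neurons also hold, was at 308 to 412 FPKM in all 6 samples. Muscle carries connective tissue fibroblasts that express several of the same markers, and the part of this tissue in the results below was not tested.

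None of the fibroblast markers passed the test, although the mean of each of the 10 was lower in BCP than in sBCP. Dpt and Pi16 had the widest gaps, with BCP means 2.24-fold and 1.80-fold below the sBCP means, and in these alone all BCP samples lay below all sBCP samples. The other 8 had BCP means 1.17-fold to 1.52-fold below, with groups that overlapped. Of the 10, 9 passed the filter of 1 FPKM in at least 3 samples and were tested, and Sox9 stayed below it. Called lower at an adjusted p under 0.05 were 0 of these 9 by limma, against 23 of all 13710 genes tested (0.168%), and called higher were 0 of 9 against 2 genes (0.0146%). Of the 23 genes called lower, 10 were the muscle genes above. At an unadjusted p under 0.05 the markers counted 2 of 9, Dpt and Pi16, against 1.32% of all tested genes lower at that level. The test thus established no change in these markers. In a bulk sample a change in the number of fibroblasts could in any case not be told apart from a change in RNA per fibroblast.

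**Figure D1:**
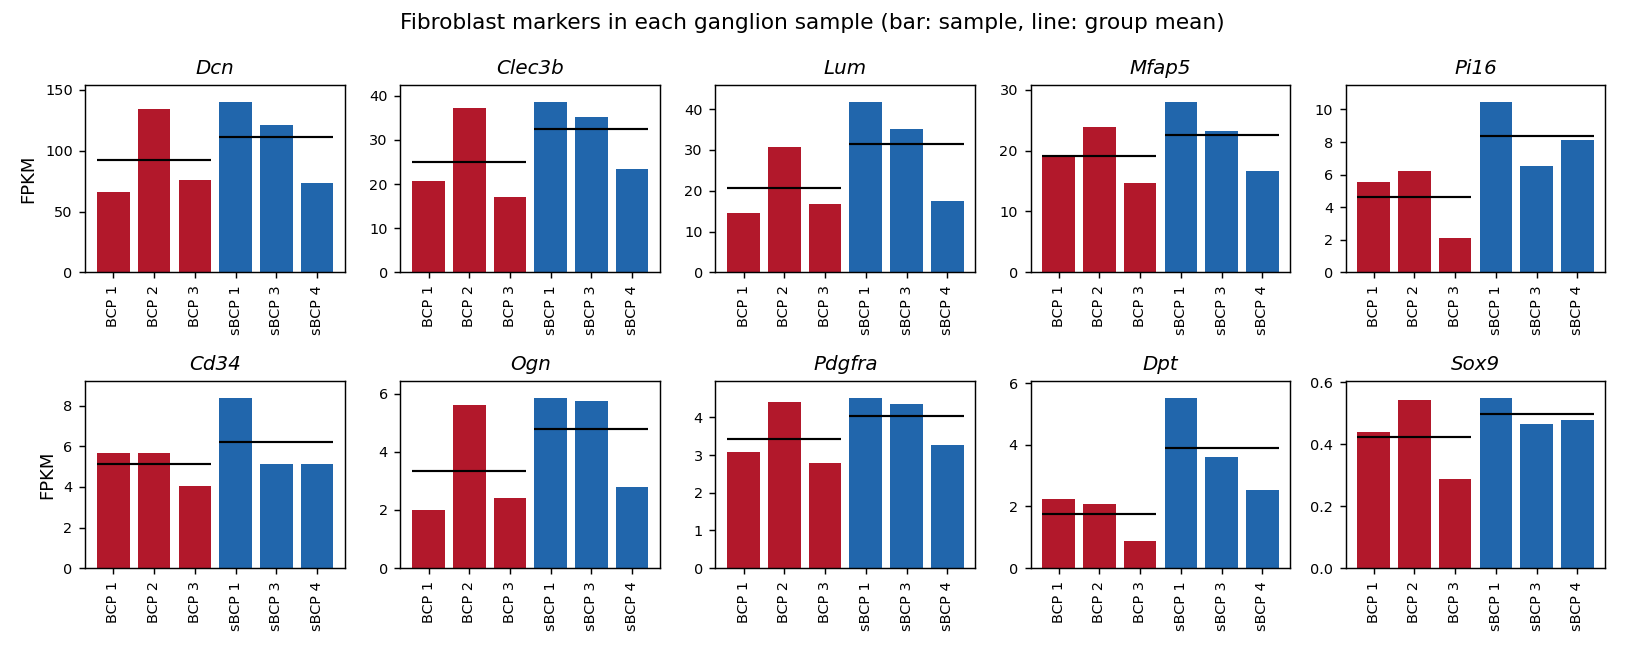
FPKM of the 10 fibroblast markers (y axes, each from 0) in the 3 BCP (red) and 3 sBCP (blue) samples, 1 bar per sample, with a black line at each group mean. sBCP replicate 1 is the highest sample for all 10 markers, and the groups are apart only for Dpt and Pi16.

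The starts of 4 of these genes are shown because they stand for both patterns below, the markers whose groups do not overlap (Dpt and Pi16) and the proteoglycan genes that move together from sample to sample (Lum and Ogn). Each is the 120 bases just before the annotated start, 5′ to 3′ on the gene's strand, from RefSeq in build GRCr8. Capitals mark the TATA motif TATAAA and the E-box CANNTG, searched on both strands, which in the Dpt window abut.
Dpt, chr13:79656221-79656340, plus strand: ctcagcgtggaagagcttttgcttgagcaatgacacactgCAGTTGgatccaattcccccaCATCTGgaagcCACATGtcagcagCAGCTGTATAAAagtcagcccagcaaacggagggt
Pi16, chr20:7377833-7377952, plus strand: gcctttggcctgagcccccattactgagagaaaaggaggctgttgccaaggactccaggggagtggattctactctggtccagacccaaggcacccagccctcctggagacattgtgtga
Lum, chr7:34245586-34245705, plus strand: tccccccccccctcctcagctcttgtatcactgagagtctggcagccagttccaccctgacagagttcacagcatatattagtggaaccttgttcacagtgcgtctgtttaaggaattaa
Ogn, chr17:15258996-15259115, minus strand: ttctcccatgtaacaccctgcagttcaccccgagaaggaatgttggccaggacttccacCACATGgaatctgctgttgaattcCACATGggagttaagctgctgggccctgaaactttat
The promoter table matched 7 of the 10 markers. In the 250 bases before the start, CANNTG was found in 7 of 7, against 65.2% of the 27457 promoters in the table, and TATAAA in 2 of 7, Dpt and Ogn, against 13.1%. The Dpt match to TATAAA runs from base -29 to base -24, and the Ogn match from -222 to -217 overlaps a match on the other strand. The CCAAT box, on either strand, was found in 4 of 7 (Dpt, Lum, Pdgfra and Mfap5) against 34.3%, the GC box GGGCGG in 1 of 7 (Cd34) against 32.4%, the AP-1 motif TGANTCA in 1 of 7 (Pdgfra) against 6.36% and the TEAD motif GGAATG in 1 of 7 (Ogn) against 11.8%.

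Ordered by level, which FPKM allows between genes because it is scaled to length, Dcn stood far above the rest. Its mean over the 6 samples was 102 FPKM, higher than 94.1% of tested genes, and its lowest sample was above the highest of the next gene. Clec3b (28.7 FPKM), Lum (26.0 FPKM) and Mfap5 (20.9 FPKM) followed with overlapping ranges, and Clec3b was above Lum in 5 of 6 samples and Lum above Mfap5 in 5 of 6. A second step separated Mfap5 from Pi16 (6.50 FPKM), Cd34 (5.68 FPKM), Ogn (4.07 FPKM), Pdgfra (3.73 FPKM) and Dpt (2.82 FPKM), each of which overlapped its neighbour in the order. Sox9 was lowest at 0.460 FPKM, and its highest sample was below the lowest Dpt sample.

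Decorin, lumican and osteoglycin, the products of Dcn, Lum and Ogn, are small leucine-rich proteoglycans that bind collagen and regulate fibril assembly. Dcn (ENSRNOG00000004554) was at 65.7, 134 and 76.3 FPKM in BCP replicates 1, 2 and 3, and at 140.1, 121 and 73.5 FPKM in sBCP replicates 1, 3 and 4. BCP replicate 2 was therefore among the high sBCP samples and sBCP replicate 4 among the low BCP samples, and the groups overlapped. The group means were 92.1 ± 37.0 FPKM in BCP and 112 ± 34.3 FPKM in sBCP (SD, n = 3 each), and the BCP minus sBCP difference on the log2(FPKM + 1) scale was -0.29 with a standard error of 0.320 and a 95% interval from -1.05 to 0.46 (limma adjusted p = 1.00). 

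Lum (ENSRNOG00000004610) was at 14.6, 30.6 and 16.7 FPKM in BCP replicates 1, 2 and 3, and at 41.7, 35.0 and 17.5 FPKM in sBCP replicates 1, 3 and 4. The order of the samples was close to that of Dcn, with sBCP replicate 4 below BCP replicate 2. Its log2(FPKM + 1) difference was -0.57 with a standard error of 0.369 and an interval from -1.44 to 0.30 (limma adjusted p = 1.00). Set against Dcn in the same sample, Lum was at 22.3%, 22.8% and 21.9% of the Dcn level in BCP replicates 1, 2 and 3, and at 29.8%, 28.9% and 23.8% in sBCP replicates 1, 3 and 4. These ratios did not overlap between the groups, and the two-sided exact permutation test gave p = 0.1, the smallest that 3 samples against 3 can give (adjusted p = 0.6 over the 9 ratios to Dcn). For Pi16 and Dpt the ratio to Dcn gave exact permutation p-values of 0.3 and 0.2, with overlapping groups.

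Ogn (ENSRNOG00000029792) was at 2.01, 5.60 and 2.43 FPKM in BCP replicates 1, 2 and 3, and at 5.86, 5.74 and 2.78 FPKM in sBCP replicates 1, 3 and 4. It showed the same split of samples into a high and a low set, 3 in each, with BCP and sBCP samples on both sides. Its difference was -0.45 on the log2(FPKM + 1) scale, with a standard error of 0.353 and an interval from -1.29 to 0.38.

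Dcn and Lum are neighbours on the plus strand of chromosome 7, from 38742051 to 38782323 and from 38819771 to 38826862 in the coordinates of the deposited table (its genome build is not named there), with gene intervals only and no exons. The gap between them is 37447 bp. Epyc, which encodes another small leucine-rich proteoglycan and lies beyond Lum on the same strand, was at most 0.120 FPKM in every sample. On chromosome 17, Ogn (14607442 to 14627937, minus strand) has neighbours on its strand on both sides. At lower coordinates lies Nol8, and at higher coordinates Omd, which encodes osteomodulin, and Aspn, which encodes asporin. Omd was at 0 to 0.498 FPKM and Aspn at 0 to 0.692 FPKM, so of these 6 proteoglycan genes only Dcn, Lum and Ogn reached 1 FPKM.

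Dermatopontin, encoded by Dpt, is a small matrix protein that binds decorin and promotes collagen fibril formation, and in the mouse Dpt marks fibroblasts of many tissues. Dpt (ENSRNOG00000002947, chromosome 13, 83073544 to 83102397, plus strand) stood at 2.25, 2.09 and 0.889 FPKM in BCP replicates 1, 2 and 3, and at 5.53, 3.62 and 2.53 FPKM in sBCP replicates 1, 3 and 4. Every BCP sample was below every sBCP sample, though BCP replicate 1 and sBCP replicate 4 were close. The group means were 1.74 ± 0.742 FPKM and 3.89 ± 1.52 FPKM (SD, n = 3 each). The difference was -0.83 on the log2(FPKM + 1) scale with a standard error of 0.290 and an interval from -1.51 to -0.15, the unadjusted limma p was 0.0240 and the adjusted p was 1.00. 

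Pi16 encodes peptidase inhibitor 16, a marker of adventitial and epineurial fibroblasts in the mouse, where it has been tied to neuropathic pain. Pi16 (ENSRNOG00000000525, chromosome 20, 6923489 to 6932786, plus strand) was at 5.54, 6.24 and 2.14 FPKM in BCP replicates 1, 2 and 3, and at 10.5, 6.53 and 8.11 FPKM in sBCP replicates 1, 3 and 4. The highest BCP sample, replicate 2, and the lowest sBCP sample, replicate 3, lay next to each other, and BCP replicate 3 was far below the others. The group means were 4.64 ± 2.19 FPKM and 8.37 ± 1.98 FPKM (SD, n = 3 each), with a log2(FPKM + 1) difference of -0.80, a standard error of 0.326 and an interval from -1.57 to -0.03 (limma unadjusted p = 0.0434, adjusted p = 1.00). Of the 9 tested markers 2 thus had all BCP samples below all sBCP samples, as had 3.06% of all tested genes, and none had all BCP samples above, as had 2.34%.

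Leaving out the sample at either end brought both differences closer to 0, as leaving out the extreme sample of a group must. Without BCP replicate 3 the differences were -0.58 for Dpt and -0.42 for Pi16, and without sBCP replicate 1 they were -0.60 and -0.64. Leaving out any other single sample moved both away from 0, to between -0.85 and -1.04 for Dpt and between -0.81 and -1.03 for Pi16. In the authors' deposited table Dpt is marked significant, with a p-value of 0.0109 and a q-value of 1, and Pi16 is not, with a p-value of 0.0265. The same deposited table gives Lum a p-value of 0.0475 without marking it. The authors' log2 fold changes are -1.16 for Dpt, -0.85 for Pi16 and -0.61 for Lum.

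**Figure D2:**
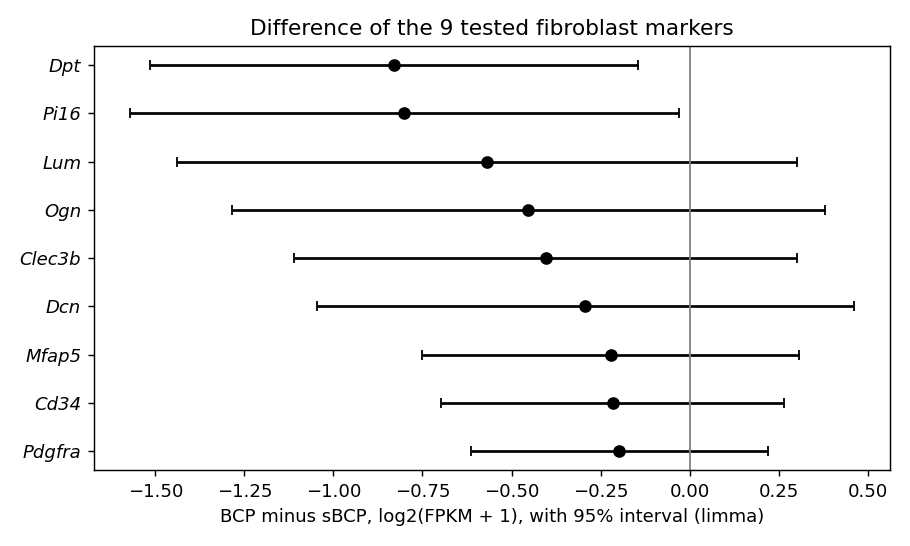
BCP minus sBCP difference on the log2(FPKM + 1) scale (x axis) for the 9 tested markers (y axis), with the 95% interval from limma, not adjusted for the number of genes. All 9 points lie below 0, from -0.83 for Dpt to -0.20 for Pdgfra, and only the intervals of Dpt and Pi16 stay below 0.

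Clec3b and Mfap5 encode secreted proteins, tetranectin, which binds plasminogen, and a glycoprotein of the fibrillin microfibrils. Clec3b (ENSRNOG00000004540, chromosome 8, 132241134 to 132246694, plus strand) was at 20.7, 37.2 and 17.1 FPKM in BCP replicates 1, 2 and 3, and at 38.6, 35.2 and 23.3 FPKM in sBCP replicates 1, 3 and 4. Mfap5 (ENSRNOG00000015505, chromosome 4, 155313671 to 155336228, plus strand) measured 19.1, 23.8 and 14.6 FPKM in BCP, against 28.0, 23.3 and 16.6 FPKM in sBCP, in the same order of replicates. In both genes BCP replicate 2 lay among the sBCP samples and the groups overlapped. The log2(FPKM + 1) differences were -0.40 with an interval from -1.11 to 0.30 for Clec3b and -0.22 with an interval from -0.75 to 0.31 for Mfap5.

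Among the cell surface markers, Pdgfra encodes the receptor for platelet-derived growth factor A and Cd34 a sialomucin that endothelial and haematopoietic progenitor cells also carry. Pdgfra (ENSRNOG00000002244, chromosome 14, 35527927 to 35581031, minus strand) was at 3.08, 4.40 and 2.79 FPKM in BCP replicates 1, 2 and 3, and at 4.52, 4.35 and 3.26 FPKM in sBCP replicates 1, 3 and 4. It varied least of the 10, by 1.62 times between its lowest and highest sample, and its difference was -0.20 with an interval from -0.61 to 0.22. Its interval is the only one of the 10 that overlaps another feature of the table, AABR07014881 on the same strand, which stayed at or below 0.491 FPKM. Cd34 (ENSRNOG00000045558, chromosome 13, 113691932 to 113711647, plus strand) reached 5.67, 5.68 and 4.06 FPKM in BCP, with 8.39, 5.12 and 5.14 FPKM in sBCP. Only sBCP replicate 1 stood above the BCP samples, and without it the difference went from -0.22 to -0.01.

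Sox9, a transcription factor of cartilage and neural crest that also marks endoneurial fibroblasts in the mouse, was below 1 FPKM in every sample. Sox9 (ENSRNOG00000002607, chromosome 10, 101288489 to 101293379, plus strand) was at 0.439, 0.541 and 0.288 FPKM in BCP replicates 1, 2 and 3, and at 0.550, 0.464 and 0.476 FPKM in sBCP replicates 1, 3 and 4. With a filter of 0.1 FPKM its difference was -0.08 on the log2(FPKM + 1) scale, with an interval from -0.33 to 0.17, on a scale that understates changes at such levels.

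The markers shared much of their order of samples. sBCP replicate 1 was the highest sample for 10 of 10 markers, as it was for 28.5% of all tested genes. BCP replicate 3 was the lowest for 7 of 10, as for 13.1% of tested genes, and BCP replicate 1 for the other 3 (Dcn, Lum and Ogn), as for 21.8%. Averaged over the 9 tested markers, the deviation from each gene's own mean on the log2(FPKM + 1) scale was -0.31, 0.22 and -0.58 in BCP replicates 1, 2 and 3 and 0.56, 0.27 and -0.17 in sBCP replicates 1, 3 and 4. The highest BCP sample over the lowest exceeded the ratio of the group means in 10 of 10 markers, and the same held within sBCP in 8 of 10, the exceptions being Dpt and Pi16. A range over 3 samples and a ratio of means are unlike measures. Within BCP the range exceeded the ratio even for Dpt and Pi16, whose groups did not overlap. For 6 of 10 (Dcn, Lum, Pdgfra, Clec3b, Mfap5 and Ogn), BCP replicate 2 and sBCP replicates 1 and 3 all lay above the other 3 samples, a split that was seen in the data and that 10.0% of tested genes show.

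**Figure D3:**
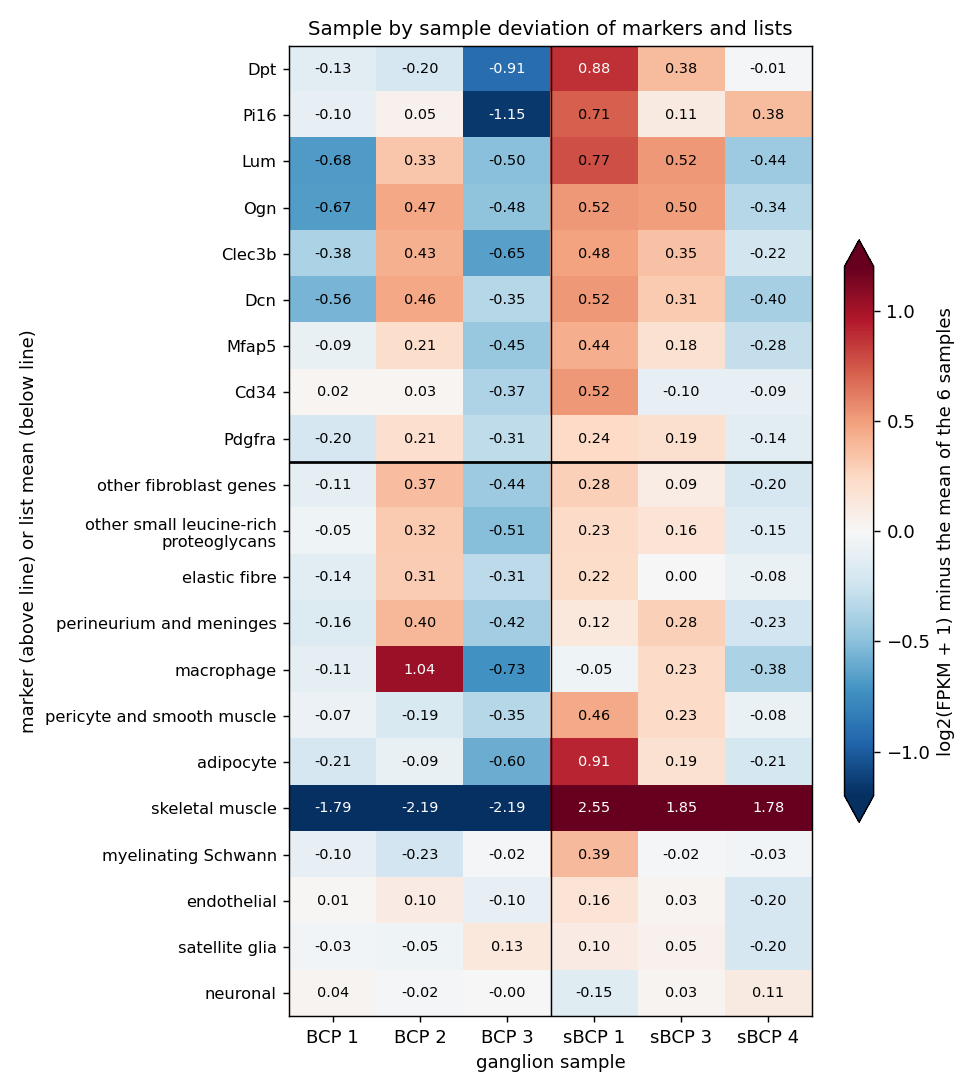
Deviation of log2(FPKM + 1) from the mean of the 6 samples (colour and printed number) for the 9 tested markers above the line and as the mean over the tested genes of other lists below it, in the 3 BCP and 3 sBCP samples (columns); colours saturate at 1.2. The markers are mostly high in BCP replicate 2 and sBCP replicates 1 and 3, and BCP replicate 3 is below 0 for all 9.

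Other cell type lists moved over the same samples, and their part in the marker values was not tested. The macrophage list summed to 81.1 to 535 FPKM in BCP and 113 to 224 FPKM in sBCP, with 4 of 11 tested genes below 0, and was highest in BCP replicate 2 and lowest in BCP replicate 3. The perineurium and meninges list, the other connective layers of the ganglion, summed to 562 to 1318 FPKM in BCP and 834 to 1162 FPKM in sBCP, with 10 of 13 tested genes below 0 and its highest and lowest sums in the same BCP samples. Its most abundant gene, Ptgds, a prostaglandin synthase of the meninges, was at 436, 876 and 271 FPKM in BCP replicates 1, 2 and 3, and at 502, 760.2 and 535 FPKM in sBCP replicates 1, 3 and 4. Pericyte and smooth muscle genes had 10 of 11 below 0, with sums of 68.9 to 106 FPKM in BCP and 88.6 to 155 FPKM in sBCP. All BCP samples lay below all sBCP samples in 3 of the 11, against 3.06% of all tested genes. Of those 3 the widest gap was that of Des, named after its values were seen, with a difference of -1.76. The list median was -0.26. Skeletal muscle also expresses Des, and the part of muscle RNA in its difference was not tested. Adipocyte genes summed to 4.70 to 7.85 FPKM in BCP and 6.84 to 19.0 FPKM in sBCP, with 3 of 3 tested genes below 0. The defining adipocyte genes were under 1 FPKM in every sample, with Adipoq listed at 0 in BCP replicate 2 and Plin1 in BCP replicate 3. For Adipoq, Plin1, Fabp4 and Plin4 (the last named after its values were seen) all BCP samples lay below all sBCP samples. The 3.06% share covers tested genes alone, and among these only Fabp4 was tested. No such share was computed for genes under the filter. The groups overlapped for the rest of the adipocyte list, and the Cidec mean was higher in BCP (0.392 FPKM) than in sBCP (0.186 FPKM). Fabp4, a fatty acid binding protein gene, passed the filter, though BCP replicates 1 and 3 were below 1 FPKM. It was at 0.769, 1.01 and 0.350 FPKM in BCP replicates 1, 2 and 3, and at 6.38, 2.14 and 2.52 FPKM in sBCP replicates 1, 3 and 4. Its log2(FPKM + 1) difference was -1.36 with a standard error of 0.338 (limma unadjusted p = 0.00493, adjusted p = 1.00). The myelinating Schwann cell list had 9 of 10 below 0, and its sums were 2368 to 3002 FPKM in BCP and 2751 to 3702 FPKM in sBCP. Endothelial (4 of 9 below 0), satellite glia (5 of 10) and neuronal genes (6 of 12) were split between both directions.

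The other genes of fibroblasts and their matrix had list medians closer to 0 than that of the markers, with no test of that gap. The median difference of the 9 tested markers was -0.40 on the log2(FPKM + 1) scale, with 9 of 9 below 0, beside a median of -0.01 and 54.5% below 0 over all tested genes. In the list of other fibroblast genes 15 of 17 tested genes were below 0 with a median of -0.12, and 0 passed the test. Vim, an intermediate filament gene of many cell types, was at 575 ± 54.8 FPKM in BCP and 594 ± 38.6 FPKM in sBCP (SD, n = 3 each). Mgp, an inhibitor of calcification, was at 180 ± 88.7 against 176 ± 38.7 FPKM, Gsn, the actin-severing gelsolin, at 149 ± 20.3 against 164 ± 29.9 FPKM, and Col1a1, a chain of collagen I, at 105 ± 28.3 against 122 ± 13.8 FPKM. In that list 1 of 17 tested genes had all BCP samples below all sBCP samples, beside 3.06% of all tested genes. This was Serpinf1, which encodes the secreted factor PEDF and was named after its values were seen. It was at 28.8, 33.5 and 23.6 FPKM in BCP replicates 1, 2 and 3, and at 40.0, 38.3 and 35.3 FPKM in sBCP replicates 1, 3 and 4 (difference of -0.40, standard error 0.127, limma unadjusted p = 0.0156, adjusted p = 1.00).

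Lists built around single markers gave the following counts, with 0 genes called in each. Of the other small leucine-rich proteoglycan genes, 4 of 11 in the table were tested and 3 of those were below 0. Bgn, which encodes biglycan, the closest relative of decorin, was at 49.8, 81.7 and 33.4 FPKM in BCP replicates 1, 2 and 3, and at 71.4, 73.7 and 46.1 FPKM in sBCP replicates 1, 3 and 4. This repeated the high and low samples of Dcn, and its difference was -0.27 with an interval from -1.04 to 0.49. Prelp, Fmod and Tsku, the other members tested, had differences of -0.12, -0.28 and 0.03.

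The elastic fibre list around Mfap5 had 13 of 17 tested genes below 0 and a median of -0.08, with Fbln2 at 111 ± 11.7 FPKM in BCP against 117 ± 12.0 FPKM in sBCP, and Fbln5 at 64.1 ± 1.63 against 60.6 ± 6.92 FPKM (SD, n = 3 each). The platelet-derived growth factor list around Pdgfra had 2 of 6 below 0 and a median of 0.04. Its ligand genes Pdgfa, at 14.6 ± 0.830 FPKM in BCP and 14.0 ± 0.783 FPKM in sBCP, and Pdgfb, at 7.44 ± 0.717 and 7.61 ± 0.410 FPKM, differed by less than their spread. Sox genes and cartilage targets, set beside Sox9, had 2 of 5 below 0 and a median of 0.00, and Sox10, the glial member, was at 69.8 ± 9.80 against 63.9 ± 8.29 FPKM. Cartilage and bone genes had 2 of 4 below 0 and a median of -0.02.

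Genes listed for 1 of the 2 fibroblast layers were mixed in direction. Of the endoneurial list 5 of 10 tested genes were below 0, with a median of -0.03. Etv1, which sensory neurons also express, was at 8.43 ± 4.84 FPKM in BCP against 7.89 ± 3.91 FPKM in sBCP (SD, n = 3 each), and Osr2 and Wif1, named as known endoneurial markers though outside the 4 most abundant, had differences of -0.13 and -0.09. Of the epineurial list 6 of 9 tested genes were below 0, with a median of -0.06. Col14a1, a fibril-associated collagen, was at 14.8 ± 2.55 against 17.4 ± 3.89 FPKM. The most abundant members of these lists, Ngfr at 255 to 337 FPKM and Thy1 at 1356 to 1736 FPKM, are also expressed by neurons or glia.

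**Figure D4:**
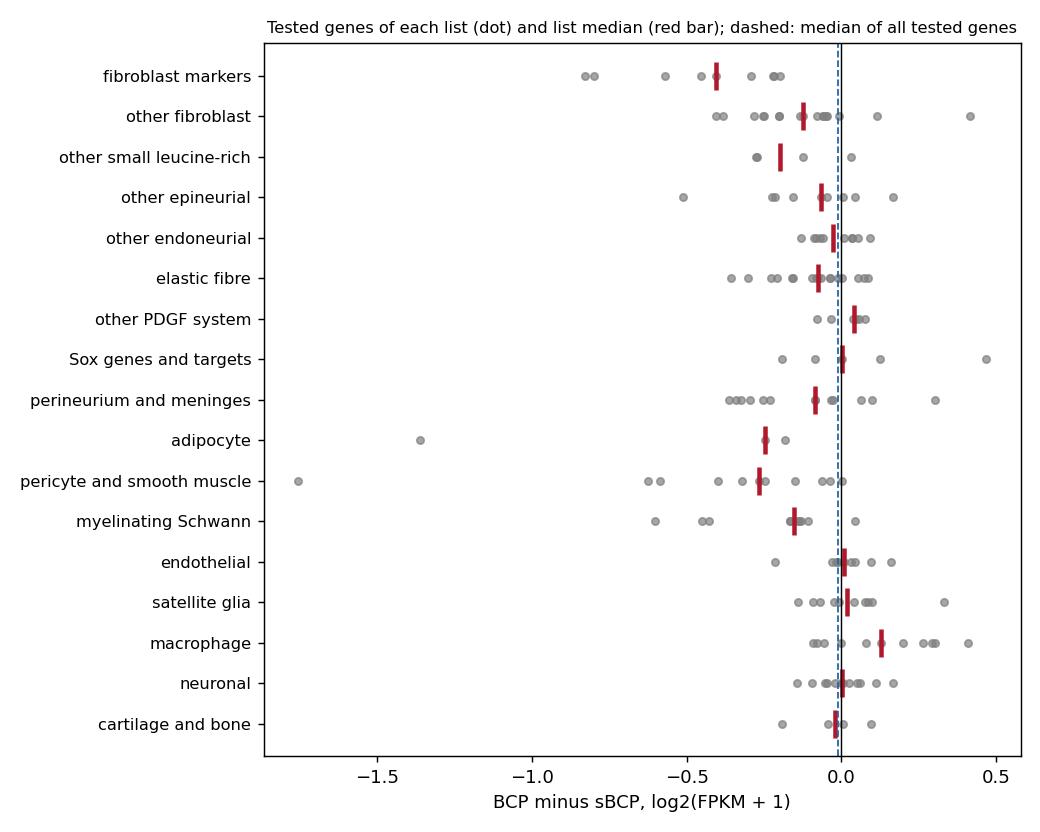
BCP minus sBCP difference on the log2(FPKM + 1) scale (x axis) of each tested gene (grey dots) in the fibroblast markers and 16 other lists (y axis), with the list median as a red bar and the median of all tested genes as a dashed line; skeletal muscle, with a median of -4.38, is left out for scale. The fibroblast markers have a median of -0.40, and none of their 9 tested members is above 0.

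By likeness to the mean standardised profile of the 9 tested markers over the 6 samples, the nearest of 10855 genes compared were Inpp1, Shc1, Nfatc1, Tp53i3, Pcsk7, Ehhadh, Adgra2 and Col3a1. As a description, their Pearson coefficients ran from 0.986 for Col3a1 to 0.995 for Inpp1, and 131 of the genes compared reached 0.9, with only 6 points behind each value. Col3a1, the chain of collagen III, was at 85.2, 125 and 60.8 FPKM in BCP replicates 1, 2 and 3, and at 152, 113 and 84.2 FPKM in sBCP replicates 1, 3 and 4, a range as wide as those of the markers. Inpp1, an inositol phosphatase gene, kept the sample order of the markers over a narrow range, from 7.43 to 9.58 FPKM. In the table's own gene ontology column 6 of the 10 markers carry the term extracellular space, as do 4.61% of tested genes with any term.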

How the data were processed

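Polyadenylated RNA was read from both ends of inserts of about 300 bp, per the labels' protocols. Per the file headers, the table deposited by the authors holds 1 FPKM value for each Ensembl gene in each sample, a fold change and its log2, and a p-value and q-value of the authors' own comparison, whose test is not stated. No source used here names the aligner, annotation, genome build or use of strand. Replicates are samples as the labels number them, with no statement of separate animals, so a p-value may reflect only technical spread. No sample shared its values with another.

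Genes that reached 1 FPKM in at least 3 of 6 samples (13710 of 23800) entered limma (version 3.58.1, R 4.3.3) as log2(FPKM + 1), with a variance trend, no covariate, and Benjamini-Hochberg adjustment over all tested genes at 0.05. The fit was tested on simulated data. Differences on this scale understate the change of low genes. Relative depth was the most frequent ratio to BCP replicate 1 among single-transcript features below 0.5 FPKM in every sample. FPKM did not resolve into whole reads, and no count test or counting interval is given. Ratios to Dcn were compared by two-sided exact permutation tests on log2 ratios, adjusted over 9. Lists are described by counts and medians. From each list the text names up to 4 of the most abundant genes, and the muscle genes that passed are given as a sum. Likeness was taken over genes with a symbol and a mean of at least 2 FPKM, 8 of which are named. The pseudocount, filter, scaling, variance model, a replicate block and the omission of samples were varied as alternatives. The members and lists were chosen with earlier results of these data known. Figures used matplotlib 3.10.9. A gene of the myelinating Schwann cell list is not reported here.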

Additional observations from a re-analysis of the deposited data

How the results depend on the processing

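Of 127 marker differences recomputed under 14 alternatives (other pseudocounts, filters, scalings and variance models, the replicate block and leaving out each sample), 127 were below 0 and 0 were called. The median marker difference ran from -0.72 to -0.19 as single samples were left out. With both BCP replicate 3 and sBCP replicate 1 left out, chosen after seeing the data, it was -0.04, with Cd34 at 0.12 and Mfap5 at 0.11, both turned in direction, 7 of 9 markers below 0, and 1 gene called higher and 8 lower over all genes. The cause was not tested. Over all genes, leaving out single samples gave 0 to 4 genes called higher and 6 to 20 lower, and no filter gave 1 higher. Replicate numbers 1 and 3 occur in both groups. The deviations of same-numbered samples had correlations of 0.06 and -0.10, inside the -0.22 to 0.23 of differently numbered samples. So few pairs cannot show whether same-numbered samples shared a batch. With the replicate block the median marker difference was -0.93 and 10 genes were called higher, with 0 markers called and the smallest marker adjusted p at 0.0917 (Lum, limma). That fit takes its differences from replicates 1 and 3 of each group alone. BCP replicate 2 and sBCP replicate 4, whose numbers have no partner, do not enter them. Absolute depth was unknown, which limits Sox9 most.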
